A study of Mus musculus with 9 samples.

Results

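The comparison set the cerebral cortex of mice with an experimental stroke and a knocked-down enhancer RNA against the cortex of sham-operated mice. It used 6 of the 9 libraries of the study, 3 labelled as knockdown (replicates 2, 3 and 4) and 3 labelled as sham (replicates 1, 2 and 3), taken as the labels give them. All mice were male C57BL/6N of 9 to 12 weeks. Knockdown mice received a locked nucleic acid antisense oligonucleotide against eRNA_06347 through the lateral ventricles, then 1 h of middle cerebral artery occlusion with a filament and 6 h of reperfusion, and the infarcted cortex of the same side was taken. Sham mice had the neck incision with no filament, no oligonucleotide is stated for them, and their libraries came from earlier data of the same laboratory. The other 3 libraries, used only for side by side values, came from mice with the same stroke and a negative control oligonucleotide. Stroke, the oligonucleotide, its injection and the data set all differ between knockdown and sham, so their parts in any difference cannot be told apart. The labels do not say that mice were pooled, and p-values measure the spread between these libraries.

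An enhancer RNA is a noncoding transcript made at an active enhancer, and a locked nucleic acid antisense oligonucleotide binds such a transcript and directs its cleavage. In the first hours after the blood supply of the cortex is cut and restored, cells lose ATP, glutamate builds up outside neurons, calcium enters through glutamate receptors, and genes for protein folding, antioxidant defence and inflammation are switched on. Neurons spend much of their energy on synapses, which is why metabolic, synaptic and signalling genes were followed here.

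No gene or transcript in the tables carries the name eRNA_06347, so its level was not analysed here and the knockdown itself could not be checked from these values. Values are TPM (each transcript's share of a library's transcripts, a level per length) summed per gene. Mitochondrial, structural small RNA, microRNA and histone symbols were then left out and each library was rescaled by its median ratio, which gives the scaled TPM used throughout. The share of TPM on the symbols left out was 22.8 to 28.4% for knockdown libraries and 41.2 to 45.8% for sham. Aligned bases came to 2.98 to 3.18 gigabases in sham and 4.92 to 5.42 in knockdown libraries. Cortical markers were present in all 6 libraries: the 12 excitatory neuron markers together reached 1153 to 1289.9 scaled TPM in sham and 2021 to 2797 in knockdown.

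Knockdown replicate 4 stood apart from the other libraries. Within its group, 834 genes lay at least 1 log2 unit above both other knockdown libraries, against 38 for replicate 2 and 47 for replicate 3, and 107 lay that far below. In the control oligo group the same count above was 104, 72 and 91, and in sham 23, 36 and 23. Counts below did not set replicate 4 apart in this way. They were 69 and 52 in knockdown replicates 2 and 3, 84, 156 and 94 in control oligo, and 36, 41 and 61 in sham. Genes of neutrophils, monocytes and the interferon response were among the genes above, and their values follow further on. Log2 changes printed below for genes that passed the test, and that moved by over 1.5 times without this library, are given both ways.

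**Figure D1:**
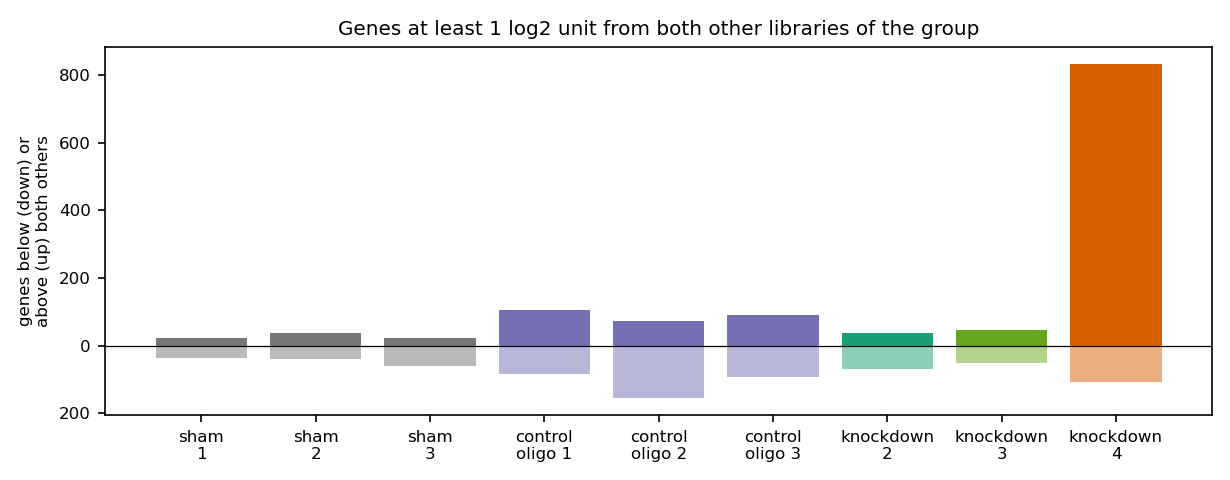
Number of genes (y axis) lying at least 1 log2 unit above (upward bars) or below (downward, paler bars) both other libraries of the same group, for each of the 9 libraries (x axis). Knockdown 4 has 834 genes above, and no other library has more than 104.

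Of 16273 genes kept, 8552 (52.6%) differed in this comparison: 3980 (24.5%) rose and 4572 (28.1%) fell in knockdown against sham (limma-trend, Benjamini-Hochberg adjusted p under 0.05). A change was called shared where the gene passed that test and each of the 3 knockdown libraries lay outside the sham range and at least 1 log2 unit from the sham mean. By this rule 919 genes (5.65%) rose and 1798 (11.0%) fell in all 3 libraries. Whatever the test, all 3 knockdown libraries lay above the sham range in 4911 genes (30.2%) and below it in 5376 (33.0%). The spread among knockdown libraries was under 1 log2 unit for 725 (78.9%) of the shared rises and 1711 (95.2%) of the shared falls. In 143 of the shared rises, replicate 4 lay at least 1 log2 unit above both other knockdown libraries, and in 0 of them did replicate 2 or replicate 3 do so. Without replicate 4, 4890 genes rose and 5063 fell. All changes are relative to the median gene: with no rescaling that median moves from 0.01 to 0.59 log2 units and the split becomes 8659 higher and 2239 lower, with 3066 and 865 shared.

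The largest shared rises were led by Atf3, Hspa1b and Hspa1a. They were ranked by the knockdown library nearest to sham, and members of the 10 rises are given in that order. Members of the 10 falls are too, except Lrrc17 and Pcdhga2, ranked first and ninth, which come last. Atf3, a stress-induced transcription factor (chr1:191170296-191218039, build GRCm38/mm10), read 0.319, 0.609 and 0.426 scaled TPM in the sham libraries and 64.2, 71.05 and 98.1 in knockdown replicates 2, 3 and 4. Its log2 change was 5.74 ± 0.19 (SE, n = 3 against 3, adjusted p = 2.37e-06). No library of one group came near the other group. Atf3 was under 1 in every sham library, so it was kept for the test only through the knockdown libraries where it is high. Its adjusted p is not independent of that choice. The same holds for other rises given below with every sham value under 1, such as Lgals3, Fam221b, Maff, Trib3 and Tgfb1. Lrrc17, a fall under 1 in every knockdown library, was kept only through sham.

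Hspa1b and Hspa1a, the neighbouring and nearly identical genes of inducible Hsp70 that refolds damaged proteins, came next, and reads shared between them may have been split either way. Hspa1b (chr17:34956436-34959238) went from 8.15, 4.797 and 5.94 in sham to 527, 281 and 315 in knockdown, a log2 change of 5.65 ± 0.27. Hspa1a (chr17:34969190-34972156) went from 7.86, 3.56 and 5.78 to 495, 237 and 302, a log2 change of 5.67 ± 0.33. In both genes knockdown replicate 2 was the highest library and no library overlapped the other group.

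Hmox1, the heme-degrading enzyme of the antioxidant response (chr8:75093621-75100589), stood at 3.31, 3.16 and 3.003 in sham and 100.4, 95.2 and 547 in knockdown. Replicate 4 was the high library here, and the log2 change of 5.39 became 4.57 without it, still past the test. Cdkn1a, the cell cycle inhibitor p21 (chr17:29090979-29100722), was even across the knockdown libraries at 119, 129 and 117, against 4.81, 4.54 and 7.44 in sham (log2 change 4.24 ± 0.17).

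Lcn2, an iron-siderophore binding protein of neutrophils and reactive astrocytes, read 3.02, 3.82 and 1.85 in sham and 66.6, 72.2 and 779.8 in knockdown. Timp1, an inhibitor of matrix metalloproteinases that overlaps Syn1 on the X chromosome, read 0.331, 1.66 and 0.898 and 36.95, 23.1 and 133. S100a11, a calcium-binding protein, read 2.26, 2.67 and 2.59 and 43.8, 46.5 and 178. In these 3 genes, and in the galectin gene Lgals3 (0, 0.158 and 0 in sham, 13.7, 12.03 and 61.5 in knockdown), replicate 4 was far above the other knockdown libraries. Their log2 changes of 5.37, 4.72, 4.37 and 4.45 were 4.21, 4.004, 3.72 and 3.72 without replicate 4. The last of the 10, Fam221b, was even at 13.7, 17.9 and 16.8 against 0.106, 0.515 and 0.0842 in sham, and it overlaps Tmem8b.

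**Figure D2:**
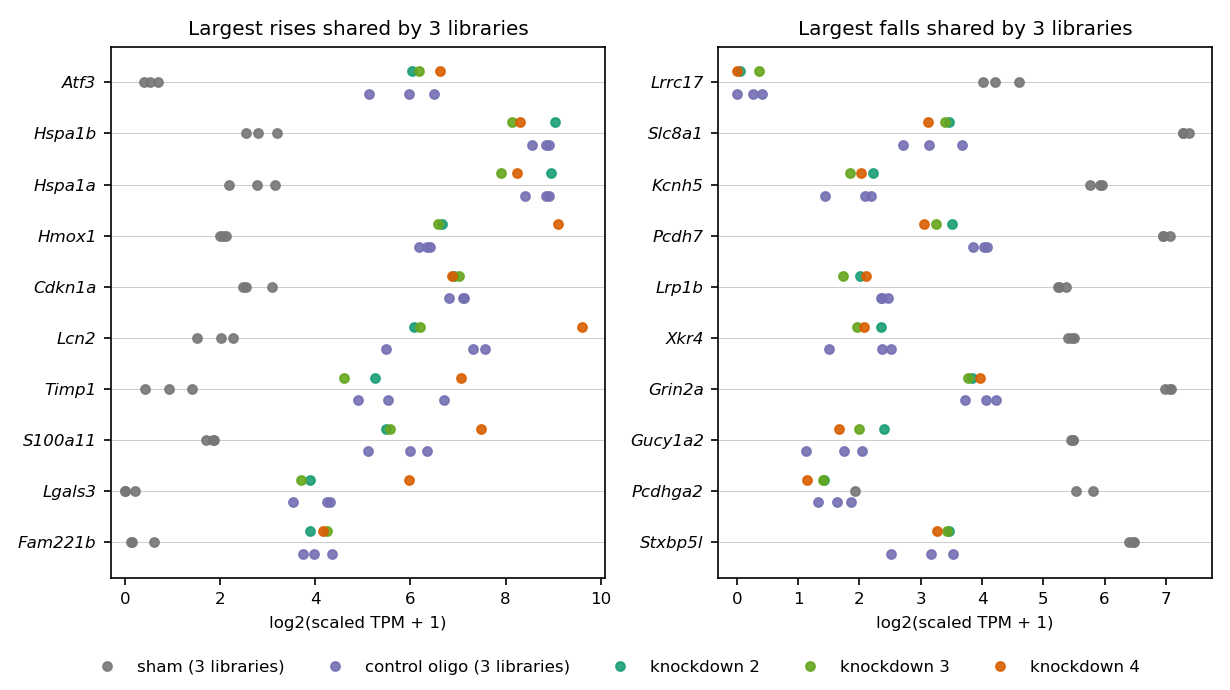
Log2(scaled TPM + 1) on the x axis for the 10 largest shared rises (left) and falls (right), one gene per row and one point per library, coloured by group and, for knockdown, by replicate. All knockdown points lie outside the sham points, and knockdown 4 is far to the right of knockdown 2 and 3 for Hmox1, Lcn2, Timp1, S100a11 and Lgals3.

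The 10 largest shared falls included genes for channels, adhesion proteins and receptors, and all but Lrrc17 span over 100 kb. Slc8a1, the plasma membrane sodium-calcium exchanger (chr17:81388691-81649607), dropped from 154, 155 and 166 in sham to 9.96, 9.53 and 7.73 in knockdown, a log2 change of -3.99 ± 0.12 (adjusted p = 1.47e-06). Kcnh5, a voltage-gated potassium channel (chr12:74897220-75177332), went from 59.97, 52.98 and 60.9 to 3.67, 2.595 and 3.09. Pcdh7, a protocadherin (chr5:57717967-58133230), went from 123, 122 and 133 to 10.4, 8.497 and 7.26. The spread within each group was small beside these differences, and replicate 4 was not set apart.

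Lrp1b, a very large lipoprotein receptor (chr2:40595246-42653624), fell by 3.34 on the log2 scale, from 36.8, 37.3 and 40.5 to 3.05, 2.31 and 3.29. Grin2a, the GluN2A subunit of the NMDA receptor (chr16:9567898-9995560), fell by 3.19, from 132, 134 and 126 to 13.2, 12.7 and 14.6. Gucy1a2, a subunit of the nitric oxide receptor guanylate cyclase, fell by 3.46, from 42.6, 43.7 and 43.9 to 4.26, 2.99 and 2.17. Xkr4 and Stxbp5l (a tomosyn that restrains vesicle release) fell by 3.33 and 3.06.

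The first and the ninth of the ranked falls carry a limit each. Lrrc17, at 23.2, 15.2 and 17.5 in sham and 0.0427, 0.28 and 0 in knockdown, lies inside Fbxl13, and the counting used no strand. Pcdhga2 shares exons with its cluster and was uneven in sham, at 45.3, 55.4 and 2.798, against 1.67, 1.64 and 1.21 in knockdown. Its change of -3.10 did not pass the test when knockdown replicate 2, 3 or 4 or sham replicate 1 or 2 was left out (between -4.36 and -2.41 over all 6 omissions).

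Most protein-folding genes rose, and the immediate early genes that passed the test all rose. Among all genes kept 24.5% rose, and 5.65% were shared rises. Of 20 heat shock chaperones, 16 rose and 1 fell (Hspa4l, -0.91), 9 of them rises shared by all 3 libraries, with a median change of 1.32. Besides the Hsp70 pair, Bag3, the co-chaperone that hands clients to autophagy, was very even at 23.8, 21.9 and 22.9 against 1.897, 1.32 and 1.25 in sham (log2 change 3.27 ± 0.15). Hsph1, an Hsp110 exchange factor, read 138, 143 and 164 in sham and 830.0, 788 and 363 in knockdown, and Hspe1, the mitochondrial Hsp10, read 89.7, 85.05 and 93.1 and 540.5, 527 and 250.3. In both genes replicate 4 was the lowest knockdown library yet above all sham libraries. Of 25 immediate early genes 12 rose and 0 fell at the adjusted threshold, 9 of the rises shared, with a median of 0.84. Maff, a small Maf factor, went from 0.4299, 0.592 and 0.234 to 15.1, 16.4 and 18.1, and Jun, a subunit of AP-1, from 12.8, 14.2 and 16.01 to 127, 100.3 and 109.

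Promoter letters of the shared genes were compared with all promoters of RefSeq (build GRCm38.p6, from 250 bases before to 50 after each gene start). The heat shock element, searched as 3 inverted GAA and TTC units with 2 free bases between neighbours, on both strands, was present in 4 of the 16 heat shock chaperones with a promoter in the table (25%), in 5 of 604 shared rises (0.828%), in 4 of 691 shared falls (0.579%), in 62 of the 10843 kept genes with a promoter (0.572%) and in 179 of all 27025 genes (0.662%). AP-1 letters, TGANTCA, were present in 8.61% of shared rises, 6.66% of shared falls, 5.99% of kept genes and 8.97% of all genes. The cAMP response element, TGAC followed by GTCA, was present in 2.65%, 3.47%, 3.62% and 2.03% of the same sets. No AP-1 form holds a cAMP response element form or the reverse. The 30 bases around 4 matches in chaperone promoters are printed to show what such a match looks like, 5′ to 3′ on the gene's strand, with the motif letters in capitals, for a gene beside its change.
Hspe1 (log2 change 2.20; chr1:55088053-55088082, plus strand, heat shock element): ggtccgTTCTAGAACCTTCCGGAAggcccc
Hsph1 (log2 change 2.06; chr5:149636280-149636309, minus strand, heat shock element): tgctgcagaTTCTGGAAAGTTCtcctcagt
Chordc1 (log2 change -0.46, adjusted p = 0.0664; chr9:18292259-18292288, plus strand, heat shock element): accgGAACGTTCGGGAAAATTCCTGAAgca
Bag3 (log2 change 3.27; chr7:128523551-128523580, plus strand, AP-1): gattatagcctaTGACTCAgggcggagctc
The Hspe1 site holds 2 overlapping matches, and its letters also lie in the promoter of Hspd1, the Hsp60 gene read in the opposite direction. Chordc1, an Hsp90 co-chaperone with 3 overlapping matches, did not pass the test, so a match and a rise did not go together in every gene. A match is a description of letters, and these windows of Hspa1a and Hspa1b held no such match.

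Metabolic genes rose more often than they fell, in lists that cover 228 kept genes: 72 rose and 21 fell, 18 and 3 of them shared, with a median of 0.28. The lists here and below were written for this tissue with earlier results of these data known, and counts read against 24.5% rising and 28.1% falling among all genes kept. Among the 13350 protein-coding genes kept, 27.2% rose and 22.4% fell, so that background leans upward. With no rescaling the metabolic counts are 184 and 3. Such counts, here and below, read against 8659 rising and 2239 falling among all 16273 genes kept.

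Amino acid and one-carbon genes rose most often, with 17 of 25 higher, 0 lower and 6 shared rises (median 0.85). Slc7a5 and Slc3a2, which together form the large neutral amino acid transporter, stood at 11.02, 13.2 and 11.7 and 55.5, 53.8 and 52.3 in sham and at 86.8, 102 and 62.1 and 190.1, 229 and 181 in knockdown. Mthfd2, a mitochondrial folate enzyme, went from 3.23, 3.31 and 3.14 to 27.1, 30.4 and 19.6 (log2 change 2.64 ± 0.18), and Shmt2, which feeds it from serine, from 7.26, 6.14 and 6.14 to 26.7, 36.6 and 27.1. All 4 were higher in every knockdown library than in any sham library.

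The NADPH and glutathione list followed, with 11 of 22 higher, 0 lower and 3 shared rises. Srxn1, which repairs oxidised peroxiredoxins, read 59.1, 65.3 and 58.9 in sham and 178, 178 and 131 in knockdown. Pgd, an NADPH-forming enzyme of the pentose phosphate pathway, read 12.3, 13.96 and 12.2 and 31.9, 37.2 and 57.8, highest in replicate 4. Txnrd1, thioredoxin reductase, rose without meeting the shared rule (0.96 ± 0.1).

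In glucose metabolism few members moved, and several moved apart. Of 23 glycolysis and lactate genes 5 rose (Gapdh 1.61, Slc2a1 1.60, Eno1 0.89, Aldoc 0.45 and Ldha 0.40) and 2 fell (Slc16a7 -2.75, and Pfkp -0.36, which turns to 0.32 with no rescaling), and without replicate 4 it was 13 and 2. Gapdh, the glycolytic dehydrogenase often used as a reference gene, was 149, 147 and 146 in sham and 449, 516 and 401 in knockdown. Slc2a1, the glucose transporter of the blood-brain barrier, was 26.5, 35.6 and 28.6 and 65.2, 81.8 and 150.5, highest in replicate 4 (log2 change 1.25 without it). Aldoc and Ldha did not pass when any one sham library was left out, nor Pfkp without knockdown replicate 2 or sham replicate 1 or 3. Slc16a7, the neuronal monocarboxylate transporter that takes up lactate, fell from 31.1, 29.8 and 36.4 to 4.998, 3.84 and 3.14.

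The kinases that switch off pyruvate dehydrogenase, and so hold pyruvate out of the citric acid cycle, did not move as one. Pdk4 rose from 3.42, 3.19 and 3.39 to 18.4, 18.7 and 29.9 and Pdk2 from 29.4, 31.8 and 28.2 to 69.5, 67.2 and 66.1, whereas Pdk1 fell from 35.95, 47.6 and 36.8 to 19.2, 18.8 and 16.8. All 3 differences were larger than the spread within groups and met the shared rule, but Pdk1 (-0.42) did not pass with no rescaling. Of the 26 genes of that list 4 rose and 4 fell, and without replicate 4 it was 8 and 5. The others were Suclg1 (0.53), Mdh2 (0.93), Pdp1 (-1.50), Mpc2 (-0.42) and Pcx (-0.28), the last pair turning to 0.25 and 0.37 with no rescaling. Suclg1 and Pcx did not pass without knockdown replicate 2 or 3, and Suclg1, Pcx and Mpc2 did not without any one sham library.

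Respiratory chain subunits shifted by small amounts, 10 of 33 up, 3 down and 0 shared, with 22 up and 3 down when replicate 4 was left out. Cox4i1, a subunit of cytochrome c oxidase, read 321, 463 and 363 in sham and 742, 874 and 631 in knockdown, lowest of the knockdown libraries in replicate 4. The 3 that fell were Ndufs1 (-0.41), Cox7a2 (-0.42) and Atp5a1 (-0.53), and all 3 turn upward with no rescaling (0.27, 0.26 and 0.15).

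In the list of fatty acid oxidation, ketones and lipid droplets 9 of 27 rose and 0 fell. Its 3 shared rises were Angptl4 (0.443, 1.57 and 0.327 in sham, 9.28, 10.7 and 21.8 in knockdown), an inhibitor of lipoprotein lipase, Pnpla2 (4.72, 4.04 and 3.88 and 20.4, 18.7 and 37.5), the lipase that opens lipid droplets, and Plin2 (log2 change 2.56, or 1.54 without replicate 4), which coats them. Pnpla2 changed by 2.28, or 1.98 without replicate 4. Plin2 did not pass when any one sham library was left out. In cholesterol and lipid synthesis 8 of 28 rose and 5 fell, and without replicate 4 it was 14 and 6. Acaca and Fasn, enzymes of fatty acid synthesis, fell by 1.44 and 0.77 on the log2 scale, along with Elovl6 (-0.58) and Acly (-0.47), the last pair turning to 0.07 and 0.20 with no rescaling, where Fasn did not pass. Sterol enzymes Mvd (1.16) and Lss (0.84) rose.

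Transmitter glutamate and GABA metabolism had 2 of 18 higher and 5 lower, and with no rescaling 12 higher and 0 lower. Slc1a2, the astrocytic glutamate transporter GLT-1, fell from 622, 606 and 608 to 246, 275 and 336. Slc17a6 (-1.27), Slc38a1 (-0.38) and Abat (-0.31) also fell, the last pair turning to 0.29 and 0.37 with no rescaling, where Slc1a2 and Slc17a6 did not pass. Slc38a1 did not pass without knockdown replicate 3 or 4 or any one sham library, nor Abat without knockdown replicate 2 or 3 or any one sham library. Slc32a1 (0.94) and Slc6a11 (0.53) were the rises. In bulk tissue such as this, fewer cells of a type and less RNA per cell cannot be told apart.

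Among genes of energy buffers, purines and NAD, 6 of 26 rose and 2 fell (Ak4 -0.69, and Adk -0.34, which turns to 0.33 with no rescaling). Slc6a8, the creatine transporter, was the most even, at 28.1, 27.99 and 20.7 in sham and 95.4, 98.8 and 93.98 in knockdown (log2 change 1.88 ± 0.14). Upp1, uridine phosphorylase, rose by 2.05 with replicate 4 highest at 29.2, and by 1.39 without it. Xdh (1.80), Ampd3 (0.97), Ada (0.89) and Nmnat3 (0.68) were the other rises, and Xdh and Ampd3 were at 1.03 and 0.55 without replicate 4. Xdh, Ampd3 and Adk did not pass without any one sham library, Ak4 and Nmnat3 without sham replicate 1, nor Upp1 without sham replicate 3. Without knockdown replicate 2 Ak4 and Adk did not pass, and without replicate 3 Adk, Ampd3 and Nmnat3.

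**Figure D3:**
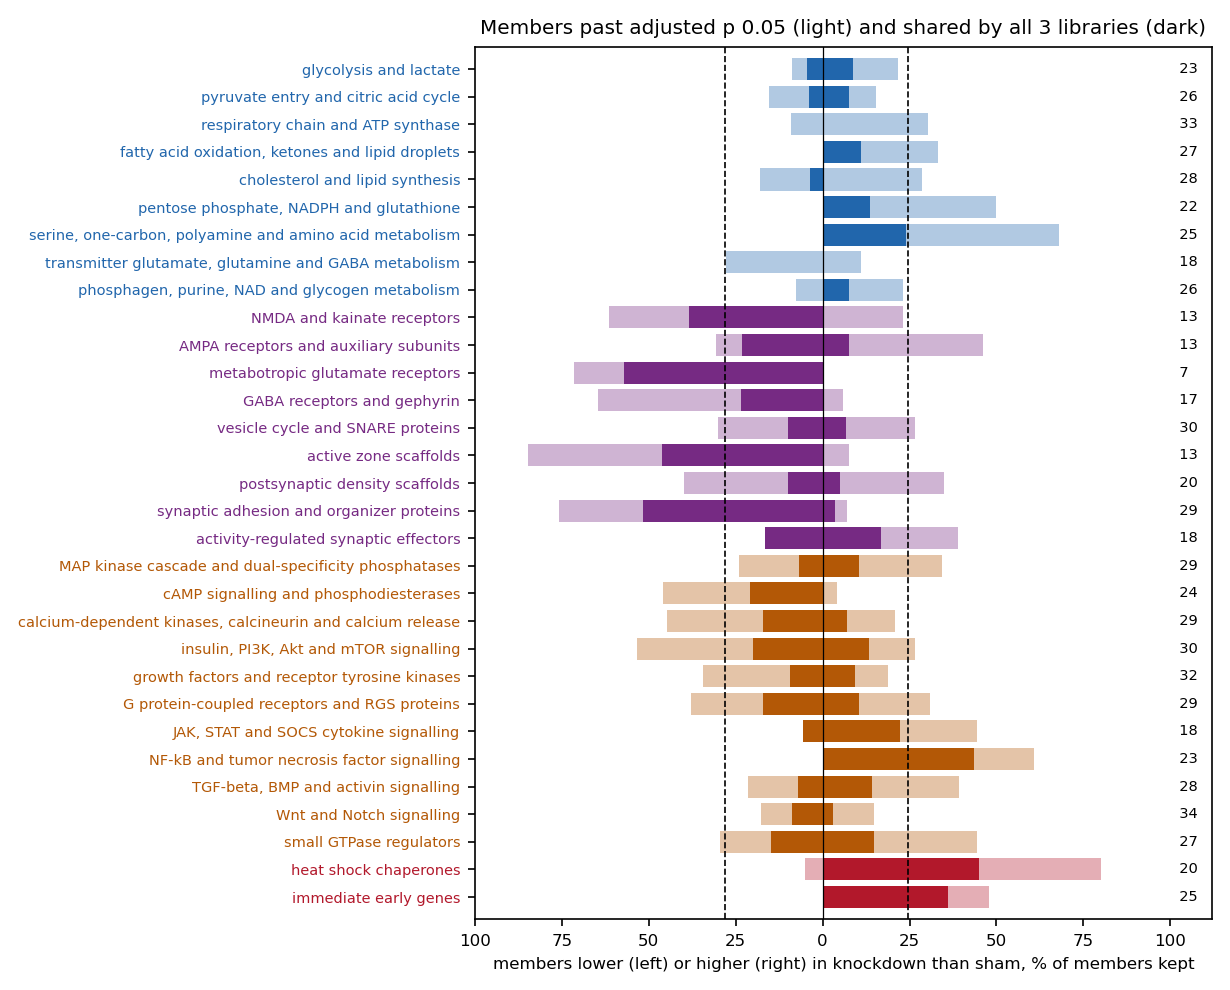
Share of the kept members of each list (x axis, percent) that were higher (right) or lower (left) in knockdown than in sham, light for adjusted p under 0.05 and dark for changes shared by all 3 knockdown libraries, with the number of members kept at the right. Dashed lines mark the 24.5% and 28.1% of all genes kept. Chaperone, amino acid and NF-kB lists reach furthest right, and active zone and synaptic adhesion lists furthest left.

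Synaptic genes fell more often than they rose: of 158 kept, 80 fell and 34 rose, 44 and 7 of them shared, with a median of -0.56. With no rescaling it was 48 lower and 59 higher, so the balance of directions within the list turns with the scaling. All genes shift upward then, to 2239 lower and 8659 higher of the 16273 kept, so rises still outnumber falls by less among synaptic genes.

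Ionotropic glutamate receptor genes divided by subunit. Of 13 NMDA and kainate receptor genes 8 fell, 5 of them in all 3 libraries, and 3 rose (Grin1 0.74, Grin2d 0.90 and Grik5 0.69). The median of the list was -0.58, and 0.04 with no rescaling. Grin2b, the GluN2B subunit, fell from 87.1, 88.1 and 85.6 to 14.3, 11.97 and 15.8 beside the fall of Grin2a given above, whereas Grin1, the obligatory GluN1 subunit, was 80.96, 77.2 and 80.8 in sham and 151, 137 and 116 in knockdown. Grik2, a kainate receptor subunit, fell by 1.32, and Neto2, which assists kainate receptors, by 1.3.

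All 4 AMPA receptor pore subunits fell, Gria1 turning upward with no rescaling, while several of their auxiliary subunits rose. Gria2, which makes AMPA receptors impermeable to calcium, went from 366, 218 and 325 to 49.8, 52.8 and 58.9 (log2 change -2.44 ± 0.2), with sham replicate 2 the lowest of its group. Gria3 went from 127, 139.5 and 117 to 25.98, 36.1 and 36.2, and Gria4 fell by 1.40. Gria1 changed by -0.49, which turns to 0.18 with no rescaling and did not pass without knockdown replicate 2 or 4 or any one sham library. Gsg1l, an auxiliary subunit, rose from 14.4, 14.1 and 12.9 to 60.8, 55.96 and 32.5, and so did Cacng3 (1.18), Shisa6 (0.89), Cacng2 (0.80), Cnih2 (0.66) and Shisa7 (0.46). Cnih2 did not pass without knockdown replicate 2 or 3 or any one sham library, nor Shisa6 and Shisa7 without sham replicate 1 or 3. With no rescaling 7 of the 13 were higher and 3 lower.

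Metabotropic glutamate receptors had 5 of 7 lower and 0 higher, and with no rescaling 5 lower and 1 higher. Grm5, the mGluR5 gene, fell from 116, 114 and 108 to 18.4, 16.6 and 13.03, and Grm3, an astrocytic and neuronal inhibitory receptor, from 113, 99.6 and 118 to 19.1, 20.1 and 14.1. Grm8 (-1.70) and Grm7 (-1.55) also fell. No knockdown library reached the level of any sham library in these 4 genes.

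GABA receptor genes fell in 11 of 17 cases, and only Nlgn2, an adhesion protein of inhibitory synapses kept in that list, rose (0.71). Gabrb2, the β2 subunit, went from 153, 161 and 152 to 23.2, 22.02 and 17.2. Gabrb1 (-1.66), whose span overlaps Gabra4, and Gabrg3 (-1.22) were also among the 4 shared falls. With no rescaling 4 of the 17 were lower and 2 higher.

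At the presynaptic side, the scaffolds of the active zone fell in 11 of 13 cases, 6 of them shared, and Rimbp2 rose (0.41), which did not pass without knockdown replicate 2 or sham replicate 2 or 3. Pclo, the giant scaffold Piccolo, went from 46.2, 43.2 and 46.05 to 8.39, 5.75 and 9.26, and Rims2, a Rab3 effector at release sites, from 62.3, 62.3 and 67.6 to 16.1, 15.8 and 16.8. Unc13a, which primes vesicles, fell to a very even 39.8, 39.1 and 39.3 from 83.2, 83.8 and 82.9. With no rescaling 7 of the 13 were lower and 2 higher.

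Vesicle proteins were mixed, with 8 of 30 higher and 9 lower (15 and 3 with no rescaling). Vamp2, the vesicle SNARE of fast release, rose from 175, 187 and 171 to 903, 852 and 609.8, and Syn1, synapsin I, from 76.9, 72.5 and 76.2 to 302, 280.5 and 191, a gene that overlaps Timp1 and Araf. Sv2b, a vesicle membrane protein, fell from 391, 440.5 and 374 to 132, 116 and 70.6. For all 3, replicate 4 was the lowest knockdown library.

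Postsynaptic scaffolds were as mixed, 7 of 20 higher and 8 lower. Dlgap4, a binding partner of PSD-95, rose from 41.2, 37.2 and 42.3 to 105, 104 and 99.2, while Kalrn, a GTPase exchange factor of spines, fell from 256, 272 and 280.2 to 105, 83.1 and 90.04. Homer1, a scaffold with a short activity-induced form, fell by 1.42 at the level of the whole gene, which sums all its transcripts.

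Adhesion proteins that organise synapses fell in 22 of 29 cases, 15 of them shared, and 2 rose (the pentraxins Nptx1 0.93 and Nptx2 2.15). Adgrl3, a latrophilin, fell from 96.3, 100.4 and 103 to 21.1, 19.1 and 19.1, and Cntn1, contactin 1, from 191, 183 and 172 to 41.4, 38.5 and 37.8. Ptprd, a receptor phosphatase, and Nrxn3, a neurexin, fell by 2.02 and 1.65. With no rescaling 16 were lower and 4 higher.

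Activity-regulated effectors went the other way, 7 of 18 up and 3 down. Gem, a small GTPase that restrains calcium channels, rose from 0.989, 0.715 and 1.46 to 13.2, 7.46 and 10.99, and Nptx2, a secreted pentraxin that clusters AMPA receptors, from 26.4, 24.5 and 39.7 to 118, 172 and 118. The falls were Homer1, Pcsk1 (-1.46), a prohormone convertase, and Cpeb4 (-1.41), a translation regulator.

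The 303 signalling genes kept were balanced, 90 higher and 90 lower, 38 and 36 of them shared, with a median of 0.0144, and 156 and 44 with no rescaling. The counts of single pathways follow.

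The list of NF-kB and tumor necrosis factor signalling, a main route of inflammatory gene activation, rose in 14 of 23 members, 10 of them shared, and fell in 0. Tnfrsf12a, the receptor of TWEAK, went from 5.36, 3.79 and 6.49 to 40.9, 35.7 and 34.7, and Relb, an NF-kB subunit, from 1.76, 1.52 and 1.94 to 9.21, 9.86 and 12.4. Tnfrsf1a, the main TNF receptor, went from 3.804, 2.55 and 3.67 to 25.5, 29.3 and 60.6 with replicate 4 highest, a log2 change of 3.09, or 2.72 without it. Bcl3 rose by 2.23, and by 1.57 without that library. Without replicate 4 the median of the list was 0.94 instead of 1.54, and 16 members rose.

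Among cytokine receptors and their feedback genes, 8 of 18 rose and 1 fell, and without replicate 4 it was 11 and 3. Lifr, the receptor of leukemia inhibitory factor, fell from 24.2, 23.9 and 23.03 to 7.79, 6.43 and 10.3. Osmr, the oncostatin M receptor, rose from 2.27, 2.92 and 3.38 to 7.91, 8.63 and 21.2, and Cish, a SOCS-family inhibitor, from 0.897, 0.691 and 1.2 to 9.81, 5.73 and 5.36. Socs3, the feedback inhibitor of STAT3, rose by 2.22, and by 1.25 without replicate 4, and did not pass when any one sham library was left out. Osmr changed by 1.70, or 1.27 without replicate 4.

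Insulin, PI3K, Akt and mTOR signalling had 16 of 30 lower and 8 higher. Among the 4 shared rises were the stress-induced inhibitors of mTOR and Akt, Ddit4 (11.5, 15.5 and 14.7 in sham, 66.5, 64.5 and 74.8 in knockdown) and Trib3 (0.192, 0 and 0.148 and 3.54, 3.95 and 3.04), and Sesn2 (3.00). The median, -0.56, turned to 0.10 with no rescaling.

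Cyclic AMP signalling fell in 11 of 24 members and rose in 1 (Pde4a 0.62), with a median of -0.50 that turned to 0.18 with no rescaling. Adcy1, a calcium-stimulated adenylyl cyclase, fell from 198, 207 and 243 to 62.8, 47.9 and 60.3, and Pde4d, a phosphodiesterase, from 47.2, 43.1 and 50.8 to 11.2, 10.01 and 13.5. Akap5, the postsynaptic anchor of protein kinase A, fell from 32.2, 33.2 and 34.5 to 9.09, 7.14 and 11.9, and Creb1, the cAMP-responsive transcription factor, by 2.16.

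Calcium signalling had 13 of 29 lower and 6 higher. The release channels Itpr1 and Ryr2 fell, from 336, 348 and 329 to 75.4, 64.5 and 90.7 and from 142, 130.4 and 132 to 25.1, 22.9 and 35.1. Camk4, a nuclear calmodulin kinase, fell by 2.08, whereas Camk2a, the abundant synaptic kinase, rose from 338, 322 and 289 to 757, 728 and 718. Rcan1, a calcineurin inhibitor, rose by 1.18. With no rescaling 6 were lower and 9 higher.

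Paralogous MAP kinases moved apart, with 10 of 29 members of that list higher and 7 lower. Mapk3, encoding ERK1, rose from 48.5, 46.9 and 41.9 to 126, 116 and 116, and Mapkapk2, a target of p38, from 15.6, 15 and 14.1 to 42.9, 43.2 and 61.4. Mapk9, encoding JNK2, fell from 76.2, 67.95 and 73.8 to 27.2, 26.3 and 23.8, and Braf by 1.34.

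Growth factor and receptor kinase genes fell in 11 of 32 cases and rose in 6, with 15 and 7 without replicate 4 and 4 and 15 with no rescaling. Hbegf, an EGF receptor ligand, rose from 7.67, 7.25 and 8.404 to 21.6, 17.8 and 23.8, and Fgfr1 by 1.37. Epha4, an ephrin receptor, fell from 132, 138 and 136 to 44.3, 41.3 and 45.4, Fgf14 by 1.88 and Erbb4, the neuregulin receptor, by 2.78. Of 29 G protein-coupled receptor and RGS genes 11 fell and 9 rose, with 6 and 13 with no rescaling. Htr2a, a serotonin receptor, fell from 29.9, 31.5 and 20.02 to 3.35, 2.54 and 3.501, and Rgs16, which shortens G protein signals, rose from 5.53, 3.96 and 5.13 to 58.6, 29.4 and 43.3.

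In TGF-beta, BMP and activin signalling 11 of 28 rose and 6 fell. Tgfb1, the ligand, rose from 0.7802, 0.329 and 0.709 to 7.14, 7.11 and 19.5 (log2 change 2.80, or 2.35 without replicate 4), while the receptors Acvr1c and Bmpr2 fell by 2.26 and 1.68. Of 34 Wnt and Notch genes 5 rose and 6 fell, with Fzd3, a Wnt receptor, falling from 55.6, 53.8 and 59.6 to 11.7, 8.64 and 10.5 and Wnt4 rising by 1.49. Small GTPase genes rose in 12 of 27 cases and fell in 8, led by Rasd1 (2.07, 1.64 and 1.904 in sham, 9.77, 11.4 and 12.8 in knockdown) and Rrad (1.84) upward and by Dock4 (-1.27) and Arhgap5 (-2.76) downward.

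Changes of a single library were far more frequent in knockdown replicate 4 than elsewhere. A gene was counted for a library where that library alone lay outside the sham range and at least 1 log2 unit from the sham mean, with the other knockdown libraries within 0.5. Replicate 4 had 335 such genes higher (2.06% of genes kept) and 59 lower (0.363%). Replicate 2 had 17 higher and 30 lower (0.104% and 0.184%), and replicate 3 had 25 and 35 (0.154% and 0.215%). For scale, each sham library against the knockdown mean gave 4 to 13 higher and 19 to 29 lower by the same rule. These differences have no replicate and no test.

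The genes higher in replicate 4 alone were led by interferon-induced and immune genes. Rsad2, the antiviral enzyme viperin, read 53.6 in replicate 4, 1.58 and 1.31 in replicates 2 and 3, and 1.05, 1.59 and 0.277 in sham. Tnfrsf1b, the second TNF receptor, read 46.5 there against 2.54 and 2.24. F13a1, a clotting factor made by macrophages, read 50.1 against 1.36 and 1.68. Ifit1, another interferon-induced gene, read 55.9 against 3.26 and 4.12, and Cd274, the checkpoint ligand PD-L1, 25.2 against 1.51 and 0.941. In all 5 genes replicates 2 and 3 were within 0.5 log2 units of the sham mean. Control oligo replicate 1 was also high for Rsad2 and Ifit1, at 27.9 and 40.9, with 1.21 and 3.39 in replicate 2 and 3.202 and 3.66 in replicate 3 of that group.

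Metabolic and signalling list members were among those higher in replicate 4 alone. Tnfaip3, the A20 brake on NF-kB, was 25.9 there against 2.81 and 2.28 in the other knockdown libraries. Map3k8, a kinase upstream of ERK in inflammation, was 13.5 against 2.54 and 2.01. Hk2, the inducible hexokinase, was 8.04 against 2.11 and 2.13, and G0s2, an inhibitor of Pnpla2 that overlaps Lamb3, was 20.2 against 5.26 and 5.43. Ripk1, Akap12, Stat2, Tlr4, Tgfbr2, Rel and Nt5e lay between 1.07 and 1.82 log2 units above the sham mean in replicate 4. Tgfa and Ephb2 were lower there alone, by 1.35 and 1.05 on the log2 scale.

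Single-library genes of replicates 2 and 3 were few. In replicate 2, Sypl, a synaptophysin relative, read 32.6 against 7.84 and 9.86 in the other knockdown libraries, and control oligo replicate 2 was high too, at 26.6. The ESCRT gene Chmp1b read 1.79 in replicate 2 against 22.6 and 18.5, and control oligo replicate 2 was as low, at 0.322. Wnt10a was higher there alone (1.21 above the sham mean), and Syt7, a vesicle calcium sensor, and Idh1, an NADPH-forming dehydrogenase, were lower, by 1.24 and 1.16. In replicate 3, Inhba, the activin A subunit, read 15.9 against 4.08 and 4.204, and Cabp7, a calcium-binding protein, 34.8 against 11.7 and 9.77. Smim15, which overlaps Ndufaf2, read 5.76 there against 30.7 and 27.9, and Gabrg1 and Shank2 were lower by 1.14 and 1.04. Shank2 also passed the test of all knockdown against all sham libraries as a fall, though not in every omission of a library.

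Some marker lists of other cell types moved with replicate 4. The 15 neutrophil markers summed to 6.86 to 15.8 scaled TPM in sham, 136 and 158 in knockdown replicates 2 and 3, and 2141 in replicate 4, where 13 of the 15 were at their highest of all 9 libraries. In control oligo libraries the sum was 481, 73.9 and 537. S100a9, a defining neutrophil protein, read 3.505, 4.58 and 1.47 in sham and 32.5, 44.9 and 689 in knockdown, and Retnlg was listed at 0 in every sham library and read 5.52, 8.596 and 68.3 in knockdown. Of the 7 neutrophil markers kept, 6 rose and 5 of them in all 3 libraries. Without replicate 4 it was still 6, with a median of 2.98 instead of 4.03. These counts leave out the other members of the 15, and 5 of the 15 were at 0 in all sham libraries. A marker near 0 in sham, such as Retnlg, is kept only through the knockdown libraries, so the filter in part sets these counts.

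Monocyte and macrophage markers were, among knockdown libraries, high in replicate 4 alone. The 12 markers summed to 718 there, to 39.5 and 43.9 in replicates 2 and 3, and to 32.9 to 58.3 in sham, and all 12 peaked in replicate 4. Lyz2, lysozyme of myeloid cells, read 5.71, 14.1 and 7.01 in sham and 16.9, 18.1 and 452 in knockdown. No marker of this list passed the test (2 rose and 2 fell without replicate 4), and the median of 0.62 turned to -0.37 without replicate 4. Interferon-stimulated, general leukocyte, cell cycle and MHC class I genes, lists chosen after these values were seen, peaked in replicate 4 in 30 of 30, 24 of 24, 20 of 20 and 13 of 16 members. The choice of these lists in part sets those counts. For no marker list was the share of all genes kept that peak in replicate 4 counted. The part of infiltrating cells in the shared rises of Lcn2, Lgals3, Timp1 and S100a11 was not tested.

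Markers of some cells resident in the brain were uneven too. Oligodendrocyte markers were not set apart in replicate 4. They summed to 988, 1208 and 1186 in knockdown replicates 2, 3 and 4 and 836 to 1369 in sham. Oligodendrocyte precursor markers summed to 79.3, 94.7 and 83.6 in knockdown and 72.8 to 88.8 in sham. Endothelial markers summed to 223 to 232 in sham, 264 and 269.9 in replicates 2 and 3 and 593 in replicate 4, with 9 of 12 at their highest there, and the median of 0.33 turned to -0.036 without it. Microglia markers summed to 318 to 356 in sham, 504 and 524 in replicates 2 and 3 and 1285 in replicate 4. Within that list C1qb, a complement gene, rose by 1.85 while P2ry12, the microglial ADP receptor, fell from 31.3, 27.2 and 27.1 to 12.1, 11.2 and 8.76. Gfap, the filament protein of reactive astrocytes, read 36.5, 42.9 and 36.8 in sham and 222, 372 and 1344 in knockdown, a change of 3.60 and of 2.86 without replicate 4. Of the 12 astrocyte markers 4 rose and 3 fell, with a median of -0.036. Of the 12 excitatory neuron markers 3 rose and 5 fell, with the cortical layer gene Rorb going from 34.4, 34.1 and 37.8 to 8.31, 6.97 and 7.25. Hemoglobin and other erythroid markers were uneven, at 1914, 2865 and 390.3 in knockdown and 673 to 1088 in sham, and none passed the test, while 4 of the 6 kept rose without replicate 4.

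**Figure D4:**
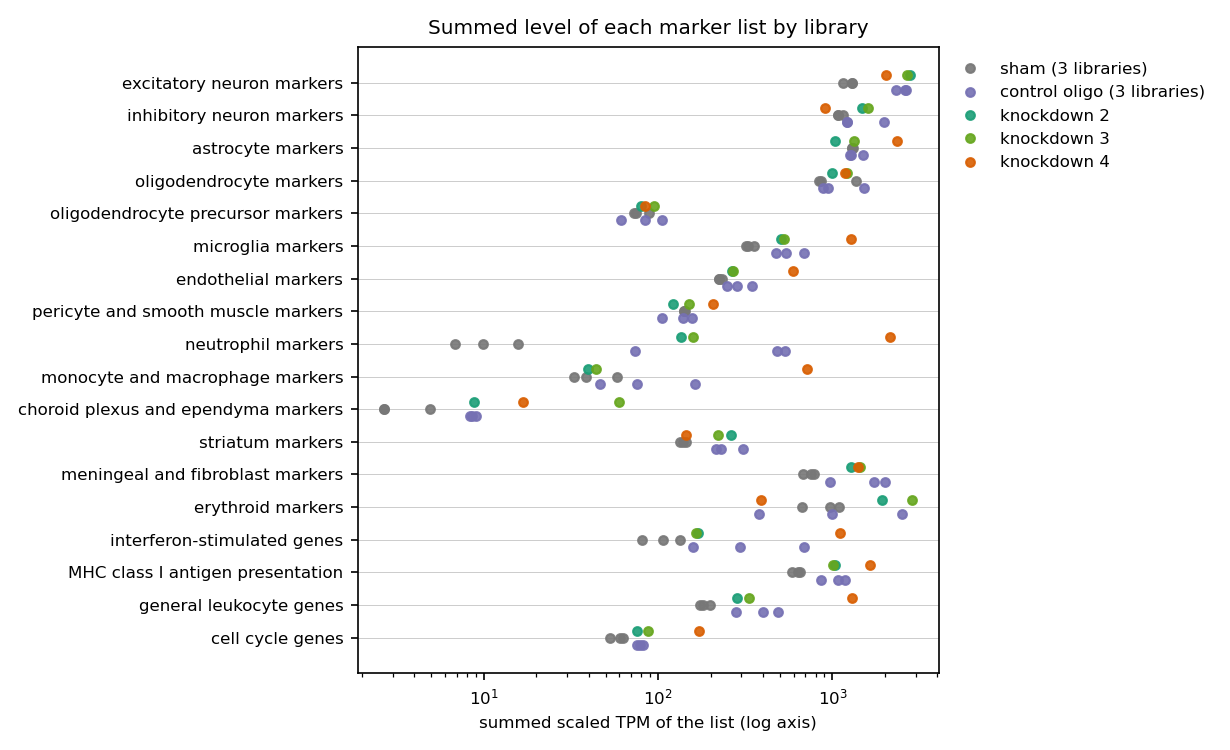
Summed scaled TPM (x axis, log scale) of each cell type list and of the 4 lists added after values were seen (bottom 4 rows), one point per library. Knockdown 4 lies far right of knockdown 2 and 3 for neutrophil, monocyte, interferon and leukocyte lists and is the lowest knockdown library for erythroid markers.

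Differences of the control oligo stroke libraries from sham share the sham libraries with this comparison, so they are only set beside it. Atf3 differed from sham by 5.74 in knockdown and 5.33 in control oligo, Hspa1b by 5.65 and 5.94, Slc8a1 by -3.99 and -4.14, Grin2a by -3.19 and -3.04, Slc7a5 by 2.68 and 2.19, and Tnfrsf12a by 2.64 and 2.27. A direct test of knockdown against control oligo, on 15546 genes, called 2 higher (0.0129%) and 0 lower, with 289 genes (1.86%) at an unadjusted p under 0.05. No metabolic, synaptic or signalling list member was among the 2, which are Nup62 and the processed pseudogene Gm7808. A missed threshold with 3 libraries a group does not show that the groups were alike.

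Nup62, a nuclear pore protein (chr7:44816088-44830812), read 11.7, 12.1 and 13.3 in sham, 3.97, 4.79 and 2.902 in control oligo and 31.2, 31.3 and 24.5 in knockdown. It was thus higher than sham in knockdown (log2 change 1.16 ± 0.14) and lower than sham in control oligo (-1.47), and its span overlaps Atf5 and Il4i1. Gm7808 was listed at 0 in all sham and control oligo libraries and at 8.28, 10.2 and 7.403 in knockdown. It was therefore kept for the test only through the knockdown libraries where it is high.

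Size and type of gene moved with the direction of change. Protein-coding genes that span under 5 kb had a median change of 0.44 log2 units, with 41.6% higher and 10.3% lower, and the 206 that span over 500 kb had a median of -1.10, with 1.94% higher and 80.6% lower. Control oligo libraries gave medians of 0.39 and -1.13 for these groups of genes. The kept synaptic genes had a median span of 104 kb and the metabolic genes 21.7 kb, and Grin2a and Grin2b span 428 and 460.0 kb against 28 kb for Grin1. The part of span in the counts of the lists was not tested.

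Shared falls were also rich in transcripts that are not protein-coding. Protein-coding genes made up 771 (83.9%) of the shared rises and 854 (47.5%) of the shared falls, and processed pseudogenes 95 (10.3%) and 545 (30.3%). Among all genes kept these types made up 82.0% and 7.87%. Among small nuclear RNAs 51 of 66 kept and among small nucleolar RNAs 65 of 99 kept were shared falls. The stroke libraries were made from poly(A) RNA and the sham libraries belong to another data set, so a difference of library making and one of tissue cannot be told apart in these classes.

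**Figure D5:**
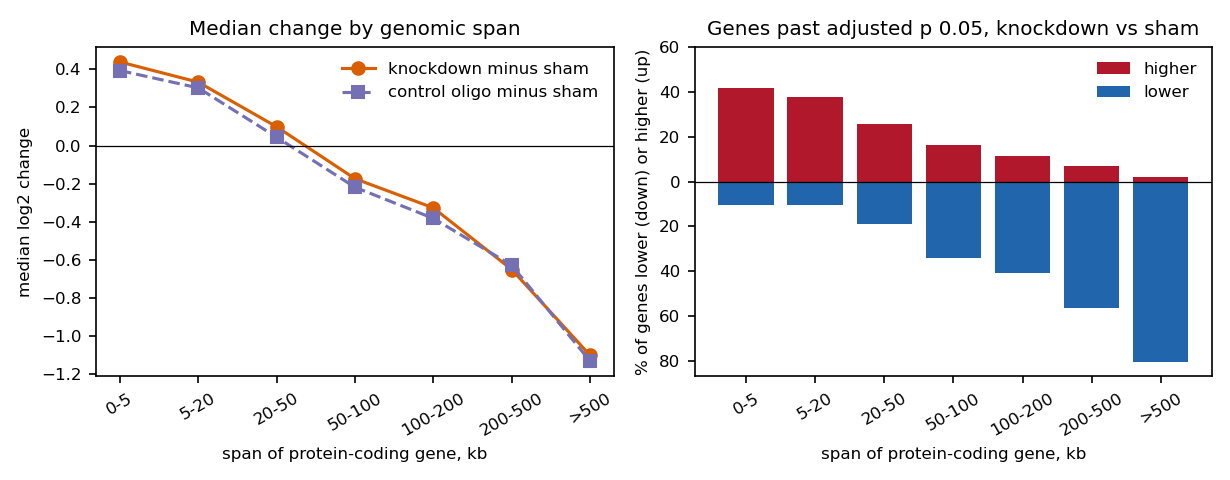
Protein-coding genes grouped by genomic span in kb (x axes). Left, the median log2 change against sham in knockdown and in control oligo libraries, falling from 0.44 to -1.10 in knockdown; right, the percentage of genes higher (up) or lower (down) in knockdown, from 41.6% higher in the shortest to 80.6% lower in the longest.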

How the data were processed

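For each of 9 libraries of mouse cortex the authors deposited a StringTie table. Per the labels, the stroke libraries were made from poly(A) RNA with a stranded kit and read as pairs, and the sham libraries came from earlier data of the laboratory, whose preparation is not given in the sources used here. HISAT2 2.0, StringTie 1.3 and the build GRCm38/mm10 are named in the submitters' processing notes. Per the file headers StringTie was version 1.3.4d, run with options -e and -B and with no strand option, so genes that overlap are uncertain. The deposited attributes give TPM, FPKM and coverage per transcript, none of them a read count, and no count test was run. TPM was the unit tested, FPKM an alternative, and coverage served to estimate aligned bases, of which 89.0 to 90.7% lay on transcripts.

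Transcript TPM was added up per gene ID. Symbols starting with mt-, Rn7s, Rnu, Rny, Snor, Mir or Hist were dropped, and libraries were rescaled by median ratios, taken against geometric means over all 9. A gene was kept where 3 or more of the 6 libraries compared had a scaled TPM of 1 or more, and tested on log2(scaled TPM + 1) with limma 3.58.1 (limma-trend, R 4.3.3, two-sided, Benjamini-Hochberg over all genes kept). Fold changes are on that scale, which understates changes of low genes. SE is the moderated standard error. Of 52550 gene IDs, 52403 (99.72%) were found in GENCODE M21, which gave gene types. A symbol on several IDs stood for the ID with the highest mean. Promoters came from RefSeq. The fit was tested on simulated data.

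Genes were named by rule: the 10 largest shared rises and falls ranked by the knockdown library nearest to sham, members with the smallest p of 45 gene lists (889 genes), and the 5 largest single-library genes of each knockdown library in each direction with the list members among them. Of 197 genes named with all alternatives, 43 list members and the 2 genes called against control oligo lie outside this rule and were chosen after their values were seen. Members and lists were chosen with earlier results of these data known. Another 4 lists were added after values were seen. Alternatives changed the pseudocount, filter, unit, scaling, symbols dropped, gene types, libraries in the fit, replicate block and each library left out. Replicate numbers 2 and 3 occur in both groups, but the sham data are of another data set, so the numbers do not pair mice. Some genes that the rule names are not reported here.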

Additional observations from a re-analysis of the deposited data

Results flagged for a closer look

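Among the genes of the direct test between stroke libraries, 2 differed between knockdown and control oligo. No sham library entered that fit. Nup62 was higher in knockdown by 2.63 log2 units (limma-trend, adjusted p = 0.0121), with 31.2, 31.3 and 24.5 scaled TPM in knockdown, 3.97, 4.79 and 2.90 in control oligo and 11.7 to 13.3 in sham. It was above the sham range in 3 of 3 knockdown libraries and below it in 3 of 3 control oligo libraries. Gm7808, a processed pseudogene, was higher by 3.26 (adjusted p = 0.00319), with 8.28, 10.2 and 7.40 in knockdown and 0 in the 6 other libraries. It passed the filter for low values through the knockdown libraries alone, so its adjusted p is not independent of that choice. With no filter 0 genes were higher in the direct test. Nup62 shares its locus with Atf5 and Il4i1, and Gm7808 lies within Olfr77, so the transcript behind either value was not tested.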

How the results depend on the processing

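With no rescaling, 8659 genes were higher and 2239 lower in knockdown than sham, 3066 and 865 of them shared by 3 libraries. With no rescaling the medians of 12 of 29 metabolic, synaptic and signalling lists turned sign, among them those past 0.5, to 0.042 for NMDA and kainate receptors, 0.18 for cAMP and 0.10 for insulin signalling, as did the changes of Abat (0.37), Acly (0.20), Adk (0.33), Atp5a1 (0.15), Cox7a2 (0.26), Elovl6 (0.066), Gria1 (0.18), Mpc2 (0.25), Ndufs1 (0.27), Pcx (0.37), Pfkp (0.32) and Slc38a1 (0.29), and 7 further named calls were lost: Ak4, Fasn, Hspa4l, Pdk1, Shank2, Slc17a6 and Slc1a2. A pseudocount of 5 left 466 shared rises and 826 shared falls, and protein-coding genes alone gave 1005 shared falls. Single-library genes higher (377 in all) numbered 745 with no filter, 144 with a filter at 5 and 110 under the replicate block, and genes lower (124) numbered 204 and 40 with pseudocounts of 0.1 and 5 and 71 with no rescaling. Over the 6 omissions of a library, rises ranged from 2883 to 4890, falls from 3805 to 5063, shared rises from 888 to 1258, shared falls from 1789 to 2115, and single-library genes from 109 to 635 higher and from 114 to 297 lower. Knockdown against control oligo gave 1 to 3 higher and 0 lower over its omissions, 0 higher with no filter, 1 with protein-coding genes alone, and 1 lower with no symbols dropped or all 9 libraries in 1 fit. Of the 168 named genes called, 26 did not pass in 1 or more omissions: Abat, Adk, Ak4, Aldoc, Ampd3, Atp5a1, Cnih2, Cox7a2, Gria1, Ldha, Mpc2, Ndufs1, Nmnat3, Pcdhga2, Pcx, Pfkp, Plin2, Rimbp2, Shank2, Shisa6, Shisa7, Slc38a1, Socs3, Suclg1, Upp1 and Xdh.

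With the replicate number as a block, on numbers 2 and 3 only, 3791 genes were higher and 4150 lower than sham, 15 named calls were lost, the median of monocyte and macrophage markers turned to -0.29 (-0.37 without knockdown replicate 4 and up to 1.08 without replicate 2), and knockdown against control oligo gave 4 higher and 5 lower. Deviations of same-numbered knockdown and sham libraries correlated at -0.096 (number 2) and 0.10 (number 3). The causes of these shifts were not tested. The remaining alternatives kept direction and side of the threshold for 182 to 197 of at most 197 named genes, and for 176 of the 176 that passed the stricter filter. Read numbers are not used here, so the precision of low values is unknown.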

Other observations

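Choroid plexus and ependyma markers summed to 59.7 scaled TPM in knockdown replicate 3, against 8.74 in replicate 2, 16.7 in replicate 4, 2.69 to 4.95 in sham and 8.35 to 9.01 in control oligo. Inhibitory neuron markers summed to 909 in knockdown replicate 4, below the 1471 and 1610 of replicates 2 and 3 and below the 1076 to 1142 of sham. Of the 12 inhibitory markers, 2 rose and 2 fell against sham (limma-trend). Astrocyte markers summed to 2334 in replicate 4 and to 1028 and 1329 in the other knockdown libraries. Gfap, given above, made up much of the sum in replicate 4, and only 3 of the 12 markers were at their highest of all 9 libraries there.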
